A study of Sus scrofa with 61 samples.

Results

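The genes described here carry proteins and membranes through the cell: 110 genes on the porcine array whose symbols begin with RAB, SEC, TMED, SRP, VPS or SNX followed by a number, or name an ARF GTPase, a COPI coat subunit or a translocon-associated (SSR) protein. They were chosen by symbol alone among the 6765 genes to which a probe-set with 1 symbol could be assigned, and where a gene had several probe-sets the brightest one by mean log2 signal stands for it. By known role, 44 members belong to the route from the endoplasmic reticulum (ER) to the Golgi apparatus, 43 to endosomes, lysosomes and their sorting, and 23 to neither, most of them Rab GTPases of exocytosis or their regulators. The match is on letters, so a few members have other work: VPS72 is a nuclear chromatin protein, and SEC14L1 and SEC14L2 belong to a family of lipid-binding proteins.

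Liver mRNA of the LP offspring of German Landrace sows fed a low protein diet through gestation was measured on Affymetrix porcine arrays at 1 fetal and 3 postnatal stages, each array holding the RNA of a single animal. There were 16 fetuses at 94 dpc (days post conception), 14 piglets at 1 dpn (days post natum), 15 weaners at 28 dpn and 16 pigs at 188 dpn. All 61 animals share the LP diet of the mother. The AP arrays were not analysed here, and a change that also occurs under an adequate diet cannot be told apart from one particular to LP offspring. Fetuses were taken by Caesarean section in a first experiment and all older animals were born to farrowing sows of a second one, which cannot be told apart from stage in developmental period 1 (1 dpn minus 94 dpc). Piglets kept beyond the first days were fostered by sows on the adequate diet, males among them were castrated, and a fast overnight is described for 28 dpn and 188 dpn only, and feeding state cannot be told apart from age in period 2 (28 dpn minus 1 dpn). Period 3 is 188 dpn minus 28 dpn. Neighbouring periods share the animals of a stage and are not independent, and the same holds for the comparison over the whole span, 188 dpn minus 94 dpc.

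A protein destined for secretion is recognised at the ribosome by the signal recognition particle, enters the ER through the SEC61 translocon and loses its signal peptide to the signal peptidase. Vesicles with a COPII coat take it to the Golgi apparatus, vesicles with a COPI coat return what belongs in the ER, and cargo receptors of the TMED (p24) family sit in both. Rab and ARF GTPases mark the membranes and recruit the coats. On the way in, endosomes are sorted by retromer and sorting nexins, invaginated by the ESCRT complexes and fused with each other and with lysosomes by the CORVET and HOPS tethers. Hepatocytes secrete most plasma proteins, albumin among them, and take up lipoproteins and other ligands from the blood.

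Signals are on a linear scale that the authors set to a common trimmed mean on every array, and they are given here as log2. Array medians, which that scaling leaves free, averaged 166 in the fetuses and 149.9 in the piglets of 1 dpn. They averaged 118 in those of 28 dpn and 106 in the pigs of 188 dpn. The differences and calls of the members were therefore also computed with the array medians subtracted and with quantile normalization. Cell type markers, genes outside the symbol rule, counts without overlap and stages of highest or lowest mean are given on the deposited scale only. Hepatocyte markers (8 of 8) lay above the array median at all stages, with a summed signal of 428725, 480538, 357754 and 330033 (medians over arrays, in stage order). The 6 T and NK cell markers, which were all below the array median at 94 dpc and 1 dpn, summed to 407, 332, 2067 and 1559, and the 5 Kupffer cell markers to 11984, 12311, 40332 and 24554. The 6 erythroid markers summed to 12077, 2256, 3624 and 4004. The 3' minus 5' difference of beta-actin, which grows as RNA is degraded or labelled incompletely, averaged 2.27, 1.78, 3.94 and 4.03 on the log2 scale at the same stages, and 9 arrays were outlying in this or a similar difference. In bulk tissue fewer cells of a type and less RNA per cell cannot be told apart. The paper chose 8 sib pairs, each from 1 litter, for every stage and diet, and its model held an effect of the mother. Littermates are not identified in the labels and were fitted here as independent, so SE, P and q can be too small. P-values measure only the spread between these samples, and the number of arrays limits the precision.

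Most members were well measured. Between 85 and 89 of the 110 members, by stage, lay above the array median on every array. Of the ER-Golgi members, 40 of 44 or more did so at each stage, and of the endosomal members, 32 of 43 or more. A member entered the limma test of a comparison if 50% or more of the animals of either stage exceeded the median of their array and its SD passed 0.25, and it was called higher or lower where neither P nor the Storey q exceeded 0.05. This filter leaves out bright members that hardly vary and dim members, so counts are also given with no filter over all 110.

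Of the 3 periods, the classes parted most in period 2. Of 34 ER-Golgi members tested, 29 were lower at 28 dpn than at 1 dpn and 4 were higher, against 9 lower and 12 higher of 30 endosomal members tested. Over all genes tested in this period 39.1% were lower and 33.1% higher. With no filter, 32 of 44 ER-Golgi members were lower and 6 higher, 11 of 43 endosomal members were lower and 12 higher, and 34.3% of all genes were lower and 25.3% higher. The median difference over the 44 ER-Golgi members was -0.50 on the log2 scale, over the 43 endosomal members -0.03 and over all genes -0.12. The gap between the class medians was -0.47, and -0.61 with quantile normalization, and the pooled SD of this gap over arrays of a stage was 0.16. Subtracting the array medians shifts both classes alike and cannot change the gap, so it is no check of it. The counts moved with the scaling of the arrays: with quantile normalization 33 ER-Golgi members were lower and 4 higher, 7 endosomal members were lower and 13 higher, and 1616 genes were lower and 1803 higher of 4746 tested. With the array medians subtracted 17 ER-Golgi members were lower and 8 higher, 4 endosomal members were lower and 23 higher, and 964 genes were lower and 2730 higher of 5010 tested. No P-value is given for a class, since the classes are lists of chosen genes.

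On single arrays the ER-Golgi median at 28 dpn stood apart from that at 1 dpn on the deposited scale, but overlapped with 94 dpc and 188 dpn. Centred on the mean of the 4 stage means of each member, it lay between 0.07 and 0.34 (median 0.27) at 94 dpc, between 0.12 and 0.64 (median 0.32) at 1 dpn, between -0.32 and 0.08 (median -0.17) at 28 dpn and between -0.83 and -0.05 (median -0.32) at 188 dpn. On this deposited scale and with quantile normalization the highest array at 28 dpn was below the lowest at 1 dpn, whereas with the array medians subtracted the stages overlapped (-0.20 to 0.22 at 28 dpn, against -0.16 to 0.54 at 1 dpn). The endosomal median lay between -0.22 and 0.19 on all 61 arrays on the deposited scale, and its stage means were -0.01 ± 0.10, 0.02 ± 0.09, 0.03 ± 0.04 and -0.04 ± 0.09 (SD, n = 16, 14, 15 and 16). With the array medians subtracted the endosomal stage means were instead -0.33, -0.16, 0.20 and 0.29 and the ER-Golgi ones -0.09, 0.16, 0.01 and -0.05. How far each class moved thus depends on the scaling, while the gap between them is the same on both scales by construction. With quantile normalization the gap averaged -0.31 at 28 dpn and -0.46 at 188 dpn. The ER-Golgi decrease was accompanied by other differences: the 3' minus 5' difference of beta-actin was larger at 28 dpn, and 6 of the 7 hepatocyte markers tested were lower at 28 dpn than at 1 dpn, with a median of -0.39 and none higher. Their part in the difference was not tested. Without the 9 outlying arrays 29 ER-Golgi members were lower and 3 higher.

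**Figure D1:**
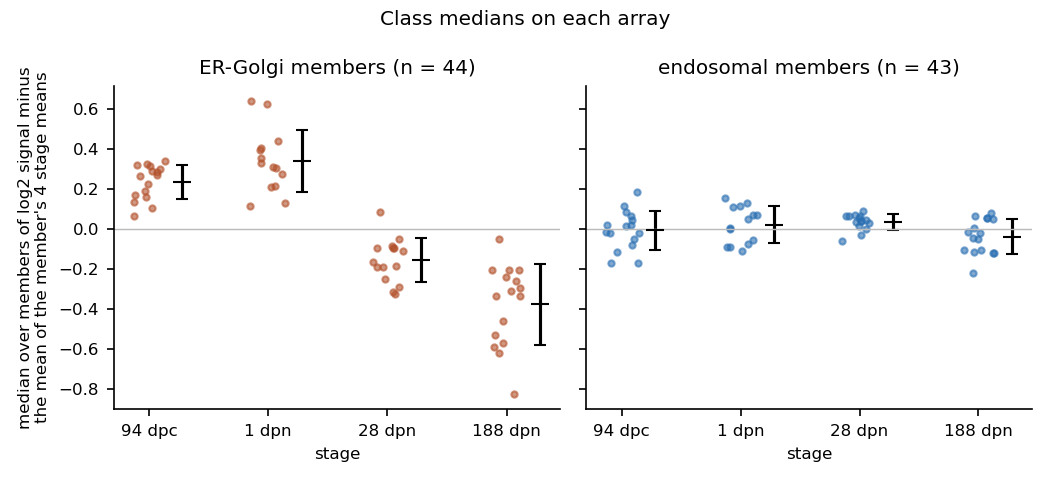
Median over the ER-Golgi members and over the endosomal members on each array (points; y axis, log2 signal minus the mean of the member's 4 stage means) by stage, with bars for the stage mean and SD. Over the stages from 94 dpc to 188 dpn the ER-Golgi median averaged 0.23, 0.34, -0.16 and -0.38; with array medians subtracted, the median ER-Golgi difference between 28 dpn and 1 dpn stayed below 0 (-0.16), while that between 188 dpn and 94 dpc turned to 0.12.

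In period 1 the classes were closer. Of 32 ER-Golgi members tested, 17 had risen at 1 dpn relative to 94 dpc and 8 had fallen, and of 32 endosomal members, 10 were higher and 7 lower, while 33.9% of all genes tested were higher and 35.4% lower. With no filter, 19 ER-Golgi members were higher and 8 lower, 10 endosomal members were higher and 8 lower, and the background was 27.5% and 28.4%. The class medians were 0.08 and 0.03, and that of all genes -0.01. Single members moved far in both directions: the absolute difference had a median of 0.37 over the ER-Golgi members, 0.18 over the endosomal members and 0.42 over all genes.

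In period 3, 19 of 34 ER-Golgi members tested were lower at 188 dpn than at 28 dpn and 4 were higher, and 10 of 26 endosomal members were lower and 7 higher, beside 39.0% lower and 21.6% higher of all genes tested. With no filter 15 ER-Golgi members were lower and 4 higher, 13 endosomal members were lower and 8 higher, and the background was 25.8% and 15.2%. The class medians of -0.19 and -0.14 were near that of all genes, -0.09, and the ER-Golgi direction did not hold in the counts with the array medians subtracted, where 5 members were lower and 8 higher, beside 1095 lower and 1678 higher of 4818 genes tested. Between the ends of the span, 28 of 36 ER-Golgi members tested were lower at 188 dpn than at 94 dpc and 4 were higher, against 16 lower and 11 higher of 32 endosomal members, beside 48.0% lower and 36.8% higher of all genes tested, and 43.5% and 29.9% with no filter. The ER-Golgi median of -0.53 turned to 0.12 with the array medians subtracted, where the median of all genes was 0.44. By stage means on the deposited scale, 38 of the 44 ER-Golgi members were highest at 94 dpc or 1 dpn and 30 were lowest at 188 dpn. Of the 43 endosomal members, 22 were highest at 94 dpc or 1 dpn and 19 were lowest at 188 dpn.

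**Figure D2:**
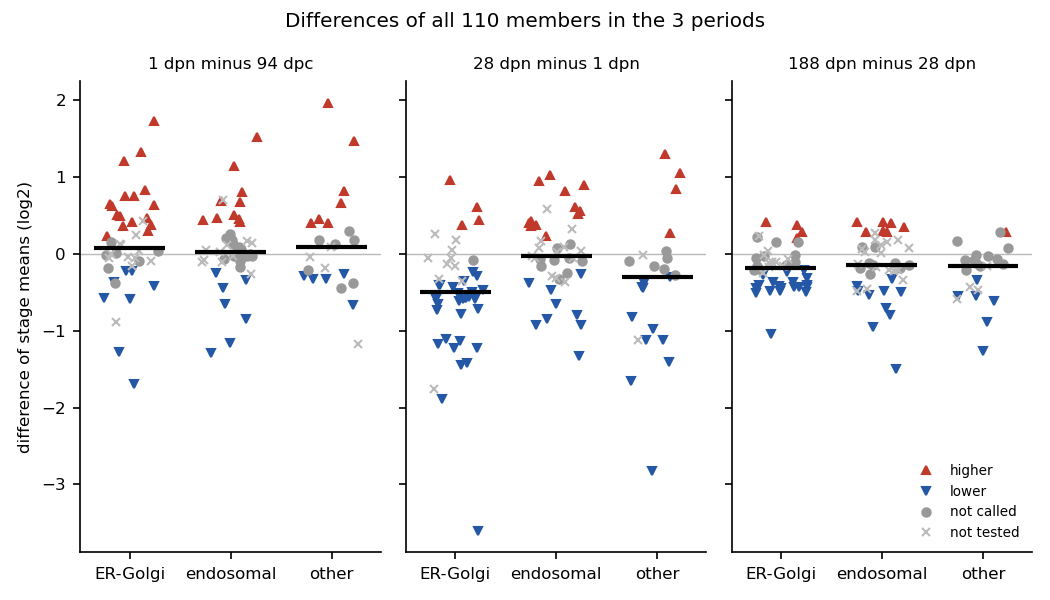
Difference of stage means on the log2 scale (y axis) of all 110 members by class (x axis) in the 3 periods, 1 point per member, marked by call, with a black line at the class median. In the panel of 28 dpn minus 1 dpn, 37 of the 44 ER-Golgi points and 22 of the 43 endosomal points lie below 0; with array medians subtracted the ER-Golgi median was still below 0 and the endosomal median above it (-0.16 and 0.31).

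The signal recognition particle, which halts translation of a secretory protein until the ribosome reaches the ER, had 5 of its 6 members lower at 28 dpn than at 1 dpn and none higher, beside 39.1% lower of all genes tested. With quantile normalization 5 were lower, and with array medians subtracted 4, beside 964 of 5010 genes. SRP19, which helps to assemble the particle, moved furthest. It had log2 signals of 11.34 to 12.04 (median 11.84) at 94 dpc, 11.01 to 12.22 (median 11.53) at 1 dpn, 9.41 to 10.07 (median 9.64) at 28 dpn and 9.42 to 10.58 (median 9.96) at 188 dpn. The arrays of the older 2 stages all lay below those of the younger 2. SRP19 fell by 1.89 in period 2 (SE 0.10, q = 2e-16, 3.7-fold), rose by 0.28 in period 3 (SE 0.11, q = 0.01) and differed by -0.18 in period 1, which did not pass the test (P = 0.099).

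SRP54, the GTPase that binds the signal peptide, ranged from 9.46 to 10.27 (median 9.85) at 94 dpc, from 10.02 to 11.09 (median 10.68) at 1 dpn, from 9.01 to 9.93 (median 9.44) at 28 dpn and from 8.11 to 10.11 (median 9.01) at 188 dpn. It was thus highest at 1 dpn, where no array overlapped with 28 dpn. SRP54 rose by 0.75 in period 1 (SE 0.11, q = 7.5e-08), fell by 1.18 in period 2 (SE 0.12, q = 9.4e-11) and fell by 0.41 in period 3 (SE 0.14, q = 0.0055). Its call in period 3 was lost with the array medians subtracted (-0.25). SRP72 and SRP68, which form a dimer on the particle, fell by 1.23 and 0.79 in period 2 (SE 0.16 and 0.10, q = 9.1e-09 and 4.9e-09). SRP9 and SRP14, the dimer that arrests elongation, did not share a course: SRP14 rose by 0.63 in period 1 (SE 0.16, q = 0.00015) and fell by 0.41 in period 2 (SE 0.16, q = 0.0042), whereas SRP9 differed by 0.04 (P = 0.73) and -0.09 (P = 0.5) and fell by 0.49 in period 3 (SE 0.12, q = 0.00032). SRP14 lost its call in period 2 with the array medians subtracted (-0.065). It was not tested in period 3 (-0.25), since its SD was below the limit.

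In the translocon the pore and its accessory proteins differed in direction in period 1 on the deposited scale. SEC61A1, SEC62 and SEC63 were all called lower in period 2. SEC61A1, the channel, had log2 signals of 11.60 to 13.00 (median 12.31) at 94 dpc, 12.66 to 13.18 (median 12.87) at 1 dpn, 11.76 to 12.58 (median 12.13) at 28 dpn and 11.75 to 12.43 (median 12.18) at 188 dpn. It rose by 0.65 in period 1 (SE 0.11, q = 1.5e-06) and fell by 0.74 in period 2 (SE 0.08, q = 1.1e-09), with no array of 28 dpn reaching the lowest of 1 dpn. The small subunits SEC61B and SEC61G also rose in period 1, by 0.50 and 0.49 (SE 0.11 and 0.09, q = 3.4e-05 and 2.4e-06), and in period 2 were not tested for lack of spread (0.25 for SEC61B and -0.06 for SEC61G, which turned to 0.29 with array medians subtracted). With its probe-sets averaged, SEC61G was not called in period 1 (0.27).

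SEC62 and SEC63, which serve the channel for substrates delivered after translation, were called lower in all 3 periods on the deposited scale, as was RAB3GAP1, a regulator of RAB3 and RAB18. With the array medians subtracted none of these 9 calls held, at differences of -0.22, -0.24 and -0.29 for SEC62, -0.08, -0.13 and -0.27 for SEC63 and -0.18, -0.10 and -0.18 for RAB3GAP1 in periods 1, 2 and 3. SEC62 ranged from 10.22 to 11.42 (median 10.87) at 94 dpc, from 9.64 to 11.01 (median 10.52) at 1 dpn, from 8.92 to 10.80 (median 9.84) at 28 dpn and from 8.69 to 10.68 (median 9.29) at 188 dpn, so that neighbouring stages overlapped. Its differences were -0.37, -0.58 and -0.44 in periods 1, 2 and 3 (SE 0.13, 0.15 and 0.18; q = 0.0026, 0.00023 and 0.011), and those of SEC63 were -0.23, -0.47 and -0.43 (SE 0.11, 0.14 and 0.17; q = 0.015, 0.00053 and 0.0098). In period 1 the call of SEC63 was also lost with Benjamini-Hochberg adjustment and with no intensity filter, and its direction depends on the probe-set, since both of its dimmer probe-sets were called higher (0.48 and 0.58) and the mean over all 3 gave 0.28. RAB3GAP1 differed by -0.33, -0.44 and -0.34 (SE 0.13 each; q = 0.006, 0.00071 and 0.009). On the deposited scale no member was called higher in all 3 periods.

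The translocon-associated proteins attend the pore during translocation. SSR2, SSR3 and SSR4 differed by -0.05, -0.17 and -0.09 in period 1 and were not tested there. In period 2 they fell by 0.40, 0.29 and 0.43 (SE 0.07, 0.09 and 0.09; q = 3.4e-06, 0.0015 and 2.4e-05), but none of the 3 was called with the array medians subtracted, where SSR3 turned to 0.06. In period 3 SSR4 rose by 0.20 (SE 0.09, q = 0.021), SSR3 differed by -0.16 (P = 0.11) and SSR2 by 0.23 without being tested. The call of SSR4 was lost with Benjamini-Hochberg adjustment, with quantile normalization (0.074), with no intensity filter and without the outlying arrays.

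SEC11C and SEC11A are the alternative catalytic subunits of the signal peptidase. SEC11C had log2 signals of 11.83 to 12.66 (median 12.23) at 94 dpc, 13.06 to 13.87 (median 13.53) at 1 dpn, 12.39 to 13.40 (median 12.92) at 28 dpn and 12.56 to 13.66 (median 13.10) at 188 dpn. Every array at 1 dpn was above every array at 94 dpc. SEC11C rose by 1.32 in period 1 (SE 0.09, q = 3.7e-14) and fell by 0.59 in period 2 (SE 0.10, q = 7.8e-07), while SEC11A rose by 0.36 in period 1 (SE 0.08, q = 5.2e-05), differed by 0.05 in period 2 without being tested and fell by 0.49 in period 3 (SE 0.08, q = 4.5e-06). The call of SEC11A in period 1 was lost with quantile normalization (0.27) and without the outlying arrays (0.32).

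The 6 TMED members, cargo receptors of the early secretory route, differed widely among themselves. In period 2, 5 of them were lower at 28 dpn than at 1 dpn and none higher, beside 39.1% lower of all genes tested. With quantile normalization 6 were lower, beside 1616 of 4746 genes. With array medians subtracted 3 were lower, beside 964 of 5010 genes, and TMED10 turned to 0.11. TMED3 had the largest change of all members. Its log2 signal was 10.03 to 11.38 (median 10.86) at 94 dpc, 9.94 to 11.70 (median 10.91) at 1 dpn, 6.57 to 8.11 (median 7.20) at 28 dpn and 6.04 to 7.72 (median 6.84) at 188 dpn, with a wide gap between the younger and the older stages. TMED3 fell by 3.60 in period 2 (SE 0.18, q = 1.1e-17, 12.2-fold) and by a further 0.50 in period 3 (SE 0.16, q = 0.0035), after a difference of 0.16 in period 1 that did not pass the test (P = 0.34). Over the whole span it fell by 3.94 (SE 0.15, q = 1.1e-22). TMED3 exceeded the array median on 13 of 15 arrays at 28 dpn and 10 of 16 at 188 dpn, so its level there lay near background, and with the array median as floor its differences were -3.57 in period 2 and -3.81 over the span.

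TMED5 took another course. It ranged from 9.11 to 10.36 (median 9.63) at 94 dpc, from 10.55 to 12.15 (median 11.46) at 1 dpn, from 9.53 to 10.75 (median 9.84) at 28 dpn and from 8.88 to 10.24 (median 9.72) at 188 dpn, so that 1 dpn stood above 94 dpc without overlap. TMED5 rose by 1.72 in period 1 (SE 0.16, q = 2.6e-11), fell by 1.44 in period 2 (SE 0.18, q = 4.5e-09) and fell by 0.36 in period 3 (SE 0.16, q = 0.018). Another of its probe-sets was called the same way in all 3 periods (1.56, -1.53 and -0.49). At 188 dpn TMED5 differed from 94 dpc by -0.08 (P = 0.6), 0.57 with array medians subtracted.

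TMED4 was called higher at 188 dpn than at 94 dpc, where on the deposited scale the other members of the family were not. Its log2 signal lay between 10.70 and 11.55 (median 10.93) at 94 dpc, between 11.43 and 12.14 (median 11.85) at 1 dpn, between 11.41 and 12.03 (median 11.59) at 28 dpn and between 11.73 and 12.58 (median 11.93) at 188 dpn, and the oldest pigs did not overlap with the fetuses. TMED4 rose by 0.82 in period 1 (SE 0.09, q = 9.2e-10) and by 0.38 in period 3 (SE 0.10, q = 0.0006), and its difference of -0.16 in period 2 was not tested for lack of spread. TMED2 and TMED10, which form complexes with other members of the family, differed by -1.06 and -1.02 between 188 dpn and 94 dpc (SE 0.08 and 0.10, q = 1.6e-15 and 4.6e-12). TMED10 fell by 0.57 in period 1 (SE 0.09, q = 3.1e-07) and by 0.24 in period 2 (SE 0.09, q = 0.0043), and TMED2 by 0.50 in period 2 and 0.51 in period 3 (SE 0.09 each, q = 4.9e-06 and 7.6e-06). TMED7 rose by 0.42 in period 1 (SE 0.09, q = 3.1e-05) and fell by 0.62 and 0.27 in periods 2 and 3 (SE 0.09 and 0.11, q = 1.2e-07 and 0.011), with a dimmer probe-set called lower in period 1 (-0.57).

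**Figure D3:**
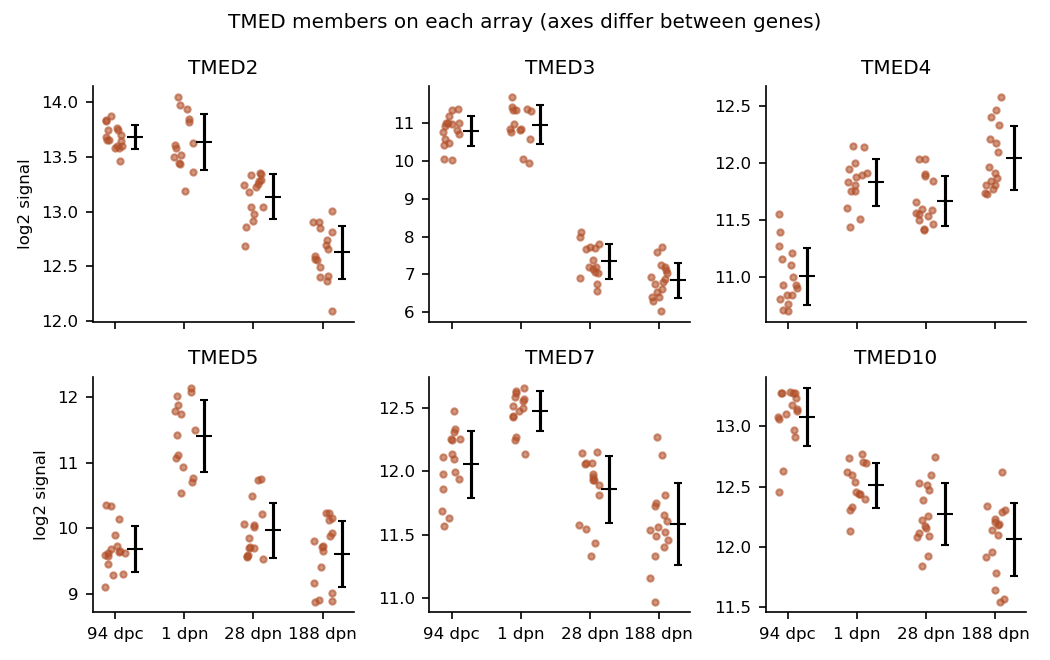
Log2 signal (y axis, with its own range in each panel) of the 6 TMED members on each of the 61 arrays (points) by stage, with bars for the stage mean and SD. TMED3 separates 94 dpc and 1 dpn (9.94 and above) from 28 dpn and 188 dpn (8.11 and below), TMED5 stands high at 1 dpn, and TMED4 is higher at 188 dpn than at 94 dpc; of these differences none changed direction with another scaling, while TMED10 in period 2 turned to 0.11 with array medians subtracted.

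Coat subunits that exist in alternative forms were set side by side, a choice made after their values were seen, and the difference between the forms was not tested. SEC23B and SEC23A are the alternative GTPase-activating subunits of the COPII coat. SEC23B had log2 signals of 9.74 to 10.34 (median 10.08) at 94 dpc, 10.69 to 12.09 (median 11.20) at 1 dpn, 9.83 to 10.56 (median 10.15) at 28 dpn and 9.20 to 10.35 (median 9.71) at 188 dpn. The piglets at 1 dpn overlapped with neither neighbouring stage. It rose by 1.20 in period 1 (SE 0.12, q = 5.8e-11) and fell by 1.14 in period 2 (SE 0.13, q = 8.2e-10). SEC23A ranged from 10.52 to 11.50 (median 11.13), from 9.97 to 11.09 (median 10.49), from 9.62 to 11.05 (median 10.20) and from 8.67 to 11.17 (median 10.25) at the same stages, and fell by 0.58 in period 1 (SE 0.11, q = 6.7e-06), as its second probe-set did (-0.70), and by 0.36 in period 2 (SE 0.12, q = 0.0018), a call that was lost with array medians subtracted (-0.01).

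Of the other COPII genes, SEC24D, a cargo adaptor of the coat, rose by 0.62 in period 1 (SE 0.15, q = 0.00016) and fell by 1.11 in period 2 (SE 0.16, q = 6.1e-08). SEC13, a subunit of the outer cage, fell by 0.57 in period 2 (SE 0.11, q = 6.1e-06), a call that was lost with array medians subtracted (-0.22). Its partner SEC31A fell by 0.42 in period 1 (SE 0.07, q = 5e-07) and hardly differed afterwards (-0.05 and 0.03, not tested), but both of its dimmer probe-sets were called higher in period 1 (0.40 and 0.41) and lower in period 2 (-2.93 and -2.48), so the course of SEC31A depends on the probe-set. In period 2, 5 of the 8 COPII members were lower and 1 higher, beside 39.1% lower and 33.1% higher of all genes tested. With array medians subtracted 2 were lower and 2 higher, beside 964 lower and 2730 higher of 5010 genes.

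In the COPI coat COPG1 and COPG2 encode alternative gamma subunits and COPZ1 and COPZ2 alternative zeta subunits. COPG1 lay between 10.50 and 11.10 (median 10.75) at 94 dpc, between 11.25 and 11.85 (median 11.50) at 1 dpn, between 11.00 and 11.46 (median 11.15) at 28 dpn and between 10.72 and 11.44 (median 11.10) at 188 dpn. COPG2 lay between 10.01 and 10.97 (median 10.55), between 8.82 and 9.66 (median 9.28), between 9.46 and 10.33 (median 9.92) and between 9.62 and 10.49 (median 10.06) at these stages. Between 94 dpc and 1 dpn both separated without overlap, COPG1 upwards and COPG2 downwards. COPG1 rose by 0.75 in period 1 (SE 0.07, q = 8.8e-11), and COPG2 fell by 1.28 (SE 0.10, q = 3.1e-13) and then rose by 0.61 in period 2 (SE 0.10, q = 8e-07), where COPG1 differed by -0.36 without being tested. COPG2 overlaps MEST in the pig annotation, and MEST had no probe-set of its own name here.

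COPZ2 ranged from 11.33 to 11.86 (median 11.55) at 94 dpc, from 8.39 to 10.87 (median 9.96) at 1 dpn, from 8.87 to 11.51 (median 11.00) at 28 dpn and from 10.30 to 11.48 (median 11.04) at 188 dpn. The fetuses were above every piglet at 1 dpn. COPZ2 fell by 1.69 in period 1 (SE 0.20, q = 2.6e-09) and rose by 0.96 in period 2 (SE 0.26, q = 0.00027), whereas COPZ1 fell by 0.65 in period 2 (SE 0.09, q = 2e-08) and by 0.43 in period 3 (SE 0.07, q = 1.8e-06). The call of COPZ1 in period 3 was lost with quantile normalization (-0.42) and with array medians subtracted (-0.27). COPA and COPB1, large subunits of the coat with no alternative form among the members, fell by 0.72 and 1.22 in period 2 (SE 0.11 and 0.13, q = 1.4e-07 and 5.1e-10). COPB2 lay above the array median on 2 of 16 arrays at 94 dpc and on none later, and was not tested.

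RAB1A and RAB2A guide traffic between the ER and the Golgi apparatus, and both fell in period 2. RAB1A had log2 signals of 11.12 to 12.36 (median 11.96) at 94 dpc, 11.64 to 12.61 (median 12.05) at 1 dpn, 10.12 to 11.53 (median 10.70) at 28 dpn and 8.74 to 11.15 (median 10.37) at 188 dpn, with no overlap between 28 dpn and 1 dpn. It fell by 1.43 in period 2 (SE 0.13, q = 1.3e-11) and RAB2A by 0.57 (SE 0.09, q = 7.3e-07). In period 1 RAB1A was called higher (0.23, SE 0.11, q = 0.014) and RAB2A lower (-0.22, SE 0.09, q = 0.0071), but another probe-set of each was called the opposite way (-0.30 and 0.53), so neither direction is settled.

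Of the ARF GTPases, which recruit COPI and adaptor coats, ARF4 rose by 0.30 in period 1 (SE 0.09, q = 0.0012) and fell by 0.59 in period 2 (SE 0.10, q = 6.2e-07). ARF2 rose by 0.46 in period 1 (SE 0.13, q = 0.00051), fell by 0.51 in period 2 (SE 0.14, q = 0.00048) and fell by 1.05 in period 3 without overlap (SE 0.12, q = 8.3e-09). The call of ARF4 in period 1 was lost with quantile normalization (0.16), and that of ARF2 in period 2 with array medians subtracted (-0.16). ARF5 went the other way, with rises of 0.37 and 0.41 in periods 2 and 3 (SE 0.12 and 0.10, q = 0.0013 and 0.00048). ARF1 varied too little to be tested, with differences of 0.43, -0.33 and -0.17. On the endosomal side ARF6, which acts at the plasma membrane, rose by 0.44 in period 1 (SE 0.08, q = 3.1e-06).

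**Figure D4:**
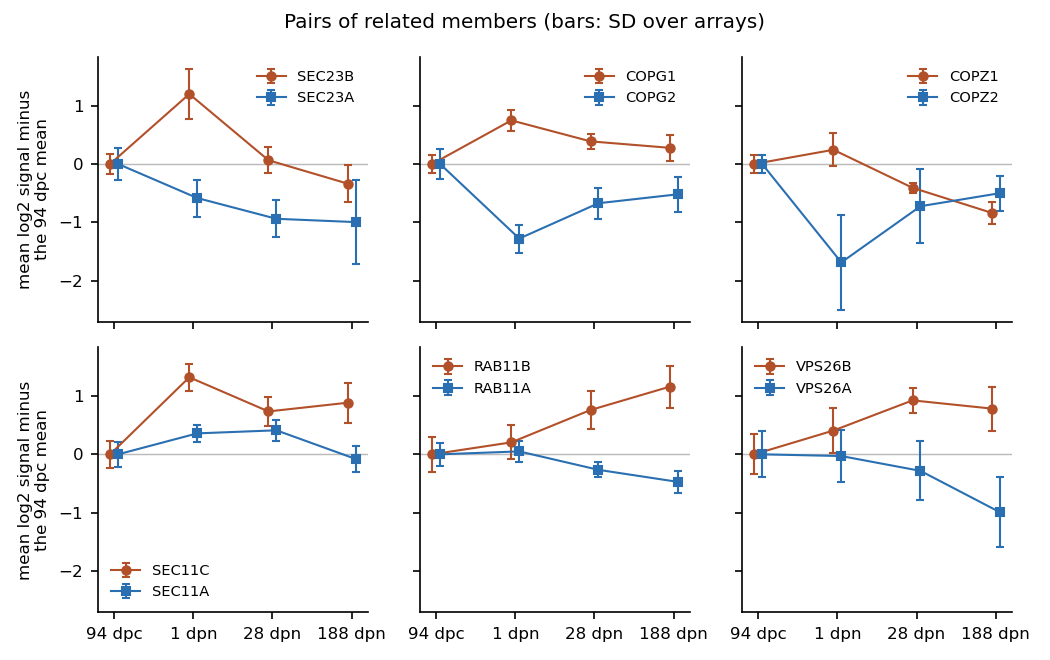
Mean log2 signal minus the gene's 94 dpc mean (y axis) by stage for pairs of related members, with bars for the SD over the arrays of a stage (n = 16, 14, 15 and 16). At 1 dpn COPG1 lies at 0.75 and COPG2 at -1.28, and at 188 dpn RAB11B lies at 1.16 and RAB11A at -0.47; RAB11A turned to 0.18 with array medians subtracted, averaging both RAB11B probe-sets gave 0.05, and the pairs were chosen after their values were seen.

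Among the endosomal Rab GTPases rises and falls were mixed: 4 were higher and 3 lower in period 2 of 8 tested, near the 33.1% higher and 39.1% lower of all genes tested. RAB24, a Rab linked to autophagy, rose in periods 1 and 2. Its log2 signal was 8.01 to 8.80 (median 8.46) at 94 dpc, 8.79 to 9.67 (median 9.07) at 1 dpn, 9.48 to 10.29 (median 10.00) at 28 dpn and 9.57 to 10.47 (median 9.99) at 188 dpn. RAB24 rose by 0.68 in period 1 (SE 0.09, q = 3e-08) and by 0.81 in period 2 (SE 0.10, q = 3e-09), as its second probe-set did (0.45 and 0.37), and was 1.56 higher at 188 dpn than at 94 dpc with no overlap (SE 0.09, q = 3.9e-18). RAB24 overlaps NSD1 in the pig annotation.

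RAB14, which works between the Golgi apparatus and early endosomes, fell most in this group. It lay between 9.39 and 10.70 (median 10.08) at 94 dpc, between 9.31 and 10.59 (median 10.12) at 1 dpn, between 7.93 and 9.27 (median 8.80) at 28 dpn and between 7.41 and 8.88 (median 8.33) at 188 dpn. All arrays at 28 dpn were below all at 1 dpn, and RAB14 fell by 1.33 in period 2 (SE 0.14, q = 2.4e-10) and by 0.49 in period 3 (SE 0.13, q = 0.001). RAB4B, a Rab of rapid recycling, rose by 0.81 in period 1 (SE 0.12, q = 9.3e-08) and fell by 0.93 and 0.49 in periods 2 and 3 (SE 0.11 and 0.14, q = 1.5e-09 and 0.0017). RAB35, another Rab of recycling, rose by 0.46 and 0.38 in periods 1 and 2 (SE 0.14 and 0.13, q = 0.00081 and 0.0017). With its probe-sets averaged, the call of RAB35 in period 1 was lost (0.31). RAB7A, the Rab of late endosomes, varied too little to be tested (0.03, -0.06 and 0.15).

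The values of RAB11A and RAB11B, both of the recycling endosome, depend on probe-set and scaling. By its brighter probe-set RAB11B was 1.16 higher at 188 dpn than at 94 dpc (SE 0.12, q = 9.4e-12), but its dimmer one was called lower (-1.05) and the mean of both, 0.05, was not called. RAB11A differed by -0.47 (SE 0.08, q = 1.1e-07), which turned to 0.18 with array medians subtracted. In period 2 the 2 probe-sets of RAB11B were likewise called in opposite directions (0.55 and -1.47). In period 3 the brighter one differed by 0.40 (SE 0.12, q = 0.0025) and the dimmer one by -0.34, and their mean of 0.03 was not called. RAB32, a Rab of lysosome-related organelles, fell by 0.66 in period 1 (SE 0.09, q = 2.3e-08). RAB22A, of early endosomes, rose by 0.41 in period 3 (SE 0.09, q = 7.6e-05).

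The subunits of the HOPS and CORVET tethers did not move as a unit. VPS16, a core subunit of both complexes, had log2 signals of 8.37 to 9.61 (median 8.83) at 94 dpc, 8.11 to 9.47 (median 8.86) at 1 dpn, 9.45 to 10.23 (median 9.87) at 28 dpn and 9.66 to 10.53 (median 10.17) at 188 dpn, so that the oldest pigs did not overlap with the fetuses. VPS16 rose by 0.94 in period 2 (SE 0.11, q = 4.1e-09) and by 0.28 in period 3 (SE 0.09, q = 0.002), and VPS18, which is likewise in both, rose by 0.89 in period 2 (SE 0.10, q = 1e-09). VPS39, which binds RAB7 in HOPS, fell by 0.92 in period 2 (SE 0.12, q = 1.8e-08), though its dimmer probe-set was called higher (1.08) and the mean of both gave 0.08. VPS41, the other subunit of HOPS alone, and VPS11, a core subunit, rose by 0.42 and 0.35 in period 3 (SE 0.08 and 0.10, q = 4.2e-05 and 0.00086).

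Of the ESCRT genes, which bud vesicles into the endosome, VPS28 of ESCRT-I rose by 0.69 in period 1 (SE 0.11, q = 2.8e-07) and 0.28 in period 3 (SE 0.12, q = 0.014). VPS25 of ESCRT-II rose by 0.40 in period 2 (SE 0.08, q = 8.4e-06), a call that was lost with quantile normalization (0.35). The ATPase VPS4A, which recycles the complexes, rose by 0.45 and 0.36 in periods 1 and 2 (SE 0.11 and 0.10, q = 8.1e-05 and 0.00045). With all probe-sets averaged, the calls in period 1 were lost for VPS28 (0.42) and VPS4A (0.28), as was that of VPS4A in period 2 (0.31). VPS37B of ESCRT-I was dim: its log2 signal was 6.77 to 8.52 (median 8.20) at 94 dpc, 4.39 to 8.03 (median 7.17) at 1 dpn, 5.84 to 7.79 (median 6.84) at 28 dpn and 4.00 to 7.36 (median 6.02) at 188 dpn, with wide ranges that overlapped between the stages. It differed by -1.16 in period 1 (SE 0.27) and -0.80 in period 3 (SE 0.23). After 94 dpc its signal lay near background, so no q is given. The call in period 3 was lost with the intensity filter at the 60th percentile.

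Retromer returns receptors from endosomes, with VPS26A or VPS26B beside VPS29 and VPS35, the last of which is no member here. VPS26B rose by 0.41 and 0.52 in periods 1 and 2 (SE 0.13 and 0.12, q = 0.0017 and 5.1e-05) and was 0.78 higher at 188 dpn than at 94 dpc (SE 0.13, q = 1.1e-07), whereas VPS26A fell by 0.71 in period 3 (SE 0.19, q = 0.00093) and by 0.99 over the span (SE 0.18, q = 4.7e-07). With all probe-sets averaged, the differences in period 1 were -0.15 for VPS26B and 0.33 for VPS26A, and VPS26B was called neither in period 2 (0.37) nor over the span (0.07). VPS29 rose by 0.42 in period 2 and fell by 0.33 in period 3 (SE 0.09 each, q = 4.5e-05 and 0.00085).

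The 14 sorting nexins, which share a lipid-binding PX domain, moved in both directions. SNX10, a nexin of endosome and lysosome shape, had log2 signals of 8.51 to 10.28 (median 9.13) at 94 dpc, 8.96 to 10.16 (median 9.36) at 1 dpn, 9.95 to 11.12 (median 10.47) at 28 dpn and 8.22 to 9.61 (median 9.04) at 188 dpn. It was thus highest at 28 dpn, without overlap with 188 dpn. SNX10 rose by 1.03 in period 2 (SE 0.13, q = 1.5e-08) and fell by 1.50 in period 3 (SE 0.14, q = 1.7e-10). The summed Kupffer cell markers were also highest at 28 dpn (40332, against 12311 at 1 dpn and 24554 at 188 dpn). So were the endothelial markers (7306, against 4173 and 4887) and the T and NK cell markers (2067, against 332 and 1559). Markers of the other cell types listed were not highest at 28 dpn. The part of any cell type in this course was not tested.

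SNX24 ranged from 6.77 to 8.28 (median 7.94) at 94 dpc, from 8.47 to 9.86 (median 9.42) at 1 dpn, from 8.12 to 10.00 (median 8.66) at 28 dpn and from 7.66 to 9.77 (median 8.95) at 188 dpn. It rose by 1.52 in period 1 without overlap (SE 0.14, q = 1.4e-11) and fell by 0.65 in period 2 (SE 0.16, q = 0.00012). The call in period 2 was lost with array medians subtracted (-0.30). The probe-set of SNX22 rose by 1.14 in period 1, again without overlap (SE 0.09, q = 4.1e-13), and fell by 0.79 and 0.49 in periods 2 and 3 (SE 0.09 and 0.08, q = 8.2e-10 and 4.2e-06). SNX22 overlaps PPIB, an ER-resident cyclophilin gene with no probe-set of its own name here, so which transcript this bright probe-set reads is not known. SNX14, a nexin of ER contact sites, fell by 1.29 in period 1 and 0.54 in period 3 (SE 0.12 and 0.16, q = 1.4e-11 and 0.0016). The mean over the probe-sets of SNX14 in period 1, -0.33, was not called. SNX5, a partner of retromer, fell by 0.85 in period 1 without overlap (SE 0.08, q = 3.3e-11), and the related SNX6 fell by 0.95 in period 3 (SE 0.13, q = 2.6e-07). SNX12 rose by 0.61 in period 2 (SE 0.10, q = 3.8e-07).

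**Figure D5:**
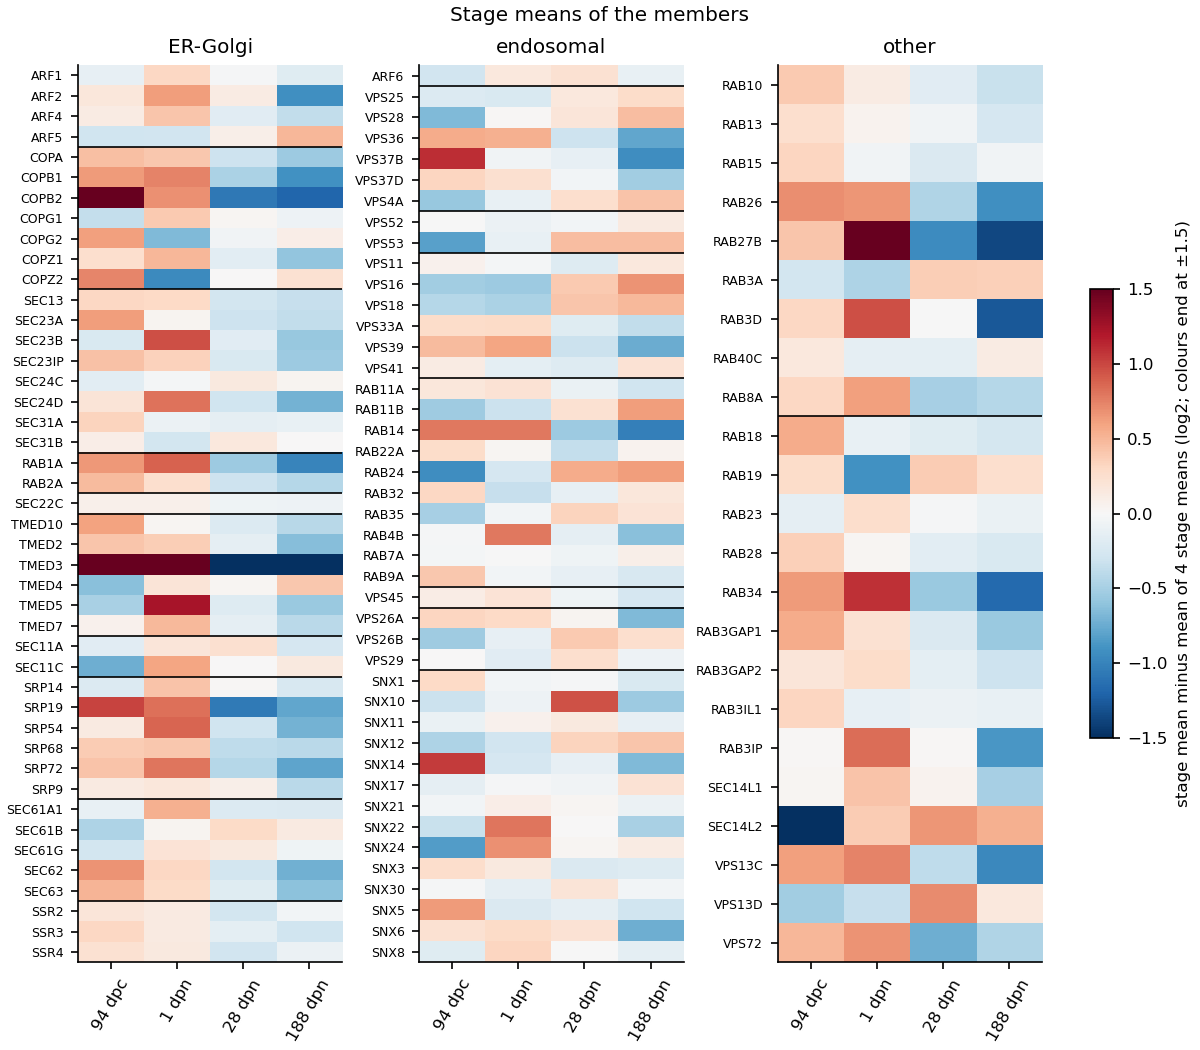
Stage means of the 110 members (rows, ordered by class and group) as the difference from the mean of the gene's 4 stage means (colour, log2) by stage (columns). In the ER-Golgi panel 38 of 44 members are highest at 94 dpc or 1 dpn and 30 are lowest at 188 dpn, on the deposited scale; the endosomal panel is mixed, with 22 of 43 highest at 94 dpc or 1 dpn and 19 lowest at 188 dpn.

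Among the 23 remaining members SEC14L2, a carrier of vitamin E and other lipids, had the largest rise at birth. It lay between 9.51 and 10.44 (median 10.12) at 94 dpc, between 11.64 and 12.40 (median 12.04) at 1 dpn, between 11.92 and 12.72 (median 12.33) at 28 dpn and between 11.45 and 12.61 (median 12.21) at 188 dpn. Every postnatal array was above every fetal one. SEC14L2 rose by 1.96 in period 1 (SE 0.10, q = 1.9e-17, 3.89-fold) and by 0.28 in period 2 (SE 0.09, q = 0.002), and was 2.11 higher at 188 dpn than at 94 dpc (SE 0.10, q = 6.2e-20).

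RAB27B and RAB3D are Rab GTPases of regulated exocytosis. RAB27B had log2 signals of 6.09 to 7.52 (median 6.86) at 94 dpc, 6.91 to 9.49 (median 8.30) at 1 dpn, 2.83 to 6.21 (median 5.71) at 28 dpn and 3.09 to 6.07 (median 5.12) at 188 dpn. It exceeded the array median on 13 of 14 arrays at 1 dpn, on 2 of 16 at 94 dpc and on none at the later stages, so its levels outside 1 dpn lie near background. RAB27B entered the tests through 1 dpn alone, and no difference is given for it. RAB3D rose by 0.66 in period 1 (SE 0.11, q = 9.6e-07), fell by 0.98 in period 2 (SE 0.13, q = 3e-08) and fell by 1.26 in period 3 without overlap (SE 0.13, q = 1.1e-09). The other 2 probe-sets of RAB3D, which were not tested in period 3, differed by 0.34 and 0.38, and the mean of all 3 (-0.18) was not called. RAB3IP, an exchange factor of RAB8, rose by 0.82 in period 1 (SE 0.17, q = 2.1e-05) and fell by 0.82 and 0.88 in periods 2 and 3 (SE 0.21 each, q = 0.00018 and 0.00022).

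RAB34, a Rab of lysosome position and cilia, fell by 1.65 in period 2 (SE 0.14, q = 3.3e-12) and 0.61 in period 3 (SE 0.13, q = 9.3e-05). RAB18, found on lipid droplets and the ER, fell by 0.67 in period 1 (SE 0.11, q = 1e-06). VPS13D and VPS13C, both lipid transporters at membrane contacts, differed in direction in period 2, with a rise of 1.05 and a fall of 1.12 (SE 0.22 and 0.28, q = 1.6e-05 and 0.00013). The call of VPS13C was lost with the intensity filter at the 60th percentile. RAB19 exceeded the array median on 1 of 14 arrays at 1 dpn and 11 of 15 at 28 dpn, and its call in period 2 was lost with the array median as floor (0.095). The nuclear VPS72 fell by 1.41 in period 2 (SE 0.17, q = 4e-09).

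Groups that did not overlap at all were counted over all members, on the deposited scale only. In period 1, 7 of the 110 members were higher and 3 lower without overlap, beside 4.08% and 3.00% of all genes, and in period 2 none were higher and 10 lower, beside 3.99% and 3.56%. In period 3 none were higher and 4 lower, beside 0.503% and 0.724%, and between 188 dpn and 94 dpc 4 were higher and 13 lower, beside 9.90% and 12.3%. Of the 10 in period 2, 6 were ER-Golgi members and 1 was endosomal. Where a called member had further probe-sets, another of them was called the opposite way for 6 of 27 members in period 1, 3 of 29 in period 2, none of 20 in period 3 and 2 of 35 (RAB11B and VPS39) between 188 dpn and 94 dpc. For 7, 18, 7 and 23 of these members in the same order, another was called the same way and none the opposite way. For the rest no further probe-set was called.

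Genes outside the symbol rule but in the same routes were counted as well, beside 33.9% higher and 35.4% lower of all genes tested in period 1 and 33.1% higher and 39.1% lower in period 2. Of 13 named genes of ER entry and N-glycosylation, 9 were higher and 1 lower at 1 dpn than at 94 dpc of 10 tested, and 2 were higher and 9 lower at 28 dpn than at 1 dpn of 11 tested. STT3A, a catalytic subunit of the oligosaccharyltransferase, rose by 0.55 in period 1 (SE 0.11, q = 1.4e-05) and fell by 1.24 in period 2 (SE 0.12, q = 3.3e-11). Of 28 named genes of ER-Golgi transport, 14 were higher and 2 lower in period 1 of 21 tested, and 5 were higher and 16 lower in period 2 of 23 tested, with a median of -0.31. Between 188 dpn and 94 dpc 12 of these transport genes were higher and 9 lower of 26 tested, with a median of 0.12, beside 36.8% higher and 48.0% lower of all genes. The GTPases SAR1A and SAR1B, which start the COPII coat, differed here: SAR1A fell by 1.13 in period 2 (SE 0.16, q = 6.2e-08), and SAR1B rose by 0.70 (SE 0.08, q = 1.6e-09).

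Of 27 named genes of endosomes and lysosomes, 8 were higher and 8 lower in period 2 of 19 tested, with a median of 0.02. VAMP8, a SNARE of endosomes and lysosomes, rose by 1.49 in period 2 (SE 0.10, q = 6.4e-15), and LAMP1, a protein of the lysosomal membrane, by 0.85 (SE 0.07, q = 3e-12). AP2M1, a subunit of the clathrin adaptor at the plasma membrane, fell by 1.90 (SE 0.08, q = 9.8e-20). Of 6 named genes of the unfolded protein response, 3 were lower and none higher in period 2 of 5 tested. DNAJC3 and DNAJB9, ER co-chaperones of that response, fell by 1.76 and 1.17 (SE 0.17 and 0.14, q = 4.3e-11 and 3.8e-09) after rises of 1.37 and 1.09 in period 1 (SE 0.14 each, q = 1.2e-10 and 7.1e-09). The partner genes given values here were chosen after those values were seen. Counts and values of the partner genes were not recomputed with another scaling of the arrays.

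Over the 4 stage means, the genes outside the list whose pattern was most like the ER-Golgi median were ZNF146, TAMM41 and GTF2A2 (Pearson's r of 0.9999 each), and those most like the endosomal median were SCARB1, DCPS and KIAA0930 (r of 0.999, 0.998 and 0.997). With 4 points such values are common for the ER-Golgi course and rarer for the endosomal one: 138 and 9 of 5317 genes had an r above 0.99.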

How the data were processed

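As deposited, the authors' files hold linear signal intensities, 1 per probe-set on each of 61 arrays, scaled globally (trimmed mean of 500.127 to 500.229), with GCOS 1.1.1 named in the submitters' processing notes. The GC-RMA values and MAS5 calls of the study's methods were not used here. Of 24123 probe-sets, 124 are controls, and 10069 others carry 1 gene symbol in the platform annotation. The 110 members matched a fixed set of symbol patterns over 174 probe-sets, and 109 were found by Entrez ID, with the same symbol, in the RefSeq table of assembly Sscrofa11.1, which was used for names and gene overlaps only. No sequence was used here.

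Log2 signals were compared between 2 stages at a time, later minus earlier, with limma 3.58.1 in R 4.3.3 (lmFit and eBayes, two-sided, stage as the only term, since sex, mother and weight are not in the labels). All probe-sets passing the filter were fitted together and q was taken after Storey and Tibshirani over all of them; the fit was tested on simulated data. Robust fits and array weights relied on statmod 1.5.0, and figures on matplotlib 3.10.9 in Python 3.11.15. Classes are described by counts and medians. Named genes are the 6 largest rises and falls among called members of each comparison, members called alike in all 3 periods, all TMED, SRP and SSR members and the 3 genes most like each class median in pattern; other members were named after their values were seen. The members and lists were chosen with earlier results of these data known. The alternatives tried were adjustment after Benjamini-Hochberg (also with an absolute change of at least 1), 2 scalings, 3 other filters (none on intensity, the 60th percentile, none on SD), 1 fit over all 4 stages, array weights, moderation with trend and robust, averaging the probe-sets of a gene, a pseudocount of 16, the array median as floor, and fits without the least correlated array of each stage or without the 9 arrays whose 3' minus 5' differences were over 3 scaled MADs from the median of their stage. No filter at all was added after seeing the data.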

Additional observations from a re-analysis of the deposited data

How the results depend on the processing

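With Benjamini-Hochberg adjustment and an absolute change of at least 1, 7 members were higher and 4 lower in period 1, 3 and 15 in period 2, 0 and 3 in period 3, and 6 and 19 between 188 dpn and 94 dpc. With the array medians subtracted, 10 members were lower in period 1, 37 were higher and 28 lower in period 2, 23 and 18 in period 3, and 48 and 25 between 188 dpn and 94 dpc. The gap between the ER-Golgi and endosomal medians moved to -0.24 in period 3 and -0.80 between 188 dpn and 94 dpc with quantile normalization, and to -0.31 in the last comparison with the array median as floor. All other alternatives left the member counts within 1.5 times and this gap within 1 SD of the reported values. Subtracting the array medians leaves this gap unchanged by construction. Of 243 results for single members, 171 of them called, 129 lost their call in at least 1 alternative, 41 gained one and 22 changed direction. The change of at least 1 ended 122 calls, subtracting the array medians 34 and the mean of probe-sets 23. The results that changed direction, called or not, were with the mean of probe-sets, in period 1, SEC63 (0.28), SEC31A (0.13), RAB1A (-0.49), RAB2A (0.15), RAB11A (-0.28), VPS26A (0.33) and VPS26B (-0.15), and in period 2, RAB11B (-0.46), RAB32 (-0.10), VPS28 (-0.65) and VPS39 (0.077). With the array medians subtracted they were SSR3 (0.062), TMED10 (0.11) and SEC61G (0.29) in period 2, and, between 188 dpn and 94 dpc, SRP14 (0.62), SRP9 (0.11), SSR2 (0.43), SSR3 (0.043), SSR4 (0.33), TMED5 (0.57), TMED7 (0.18) and RAB11A (0.18). The causes were not tested, beyond the shift of all genes that subtracting the medians makes by construction (median over genes of 0.14, 0.23 and 0.07 in periods 1, 2 and 3, against -0.01, -0.12 and -0.09 as reported). No paired analysis was possible because the replicate numbers in the labels run from 1 to 61 with none shared between stages. Dim signals could not be told apart from background, which limits RAB27B, RAB19, VPS37B, VPS13C and TMED3.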
